A study of Mus musculus with 4 samples.

Results

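Nuclear genes for the subunits of the mitochondrial respiratory chain and ATP synthase were compared between the stomachs of 2 mouse strains. They were chosen by symbol: a probe had to carry exactly 1 gene symbol beginning with Ndufa, Ndufb, Ndufc, Ndufs or Ndufv (complex I), Sdha to Sdhd (complex II), Uqcr (complex III), Cox4 to Cox8 (complex IV) or Atp5 (complex V). The table held 68 such probes, for 67 genes, among 33012 probes. Of these, 63 probes for 62 genes had a value on all 4 arrays and were compared, out of 13475 compared probes in all. They comprised 30 probes of complex I, 5 of complex II, 6 of complex III, 10 of complex IV and 12 of complex V. The rule itself reads only symbols and the presence of a value on every array, but the family was picked with earlier results of these data known.

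The arrays measured total RNA of whole stomach from male mice on chow, deprived of food for 4 h before the tissue was taken. One group was C57BL/6J, the wild type. The second was B6.CAST-17, congenic and homozygous. Its name places chromosome 17 material of CAST mice on a B6 background. Each strain was represented by 2 pools on 1 array each, every pool mixing equal RNA from 3 animals, and both groups shared sex, diet and food deprivation. A pool averages its animals, so the error terms describe the spread between pools and not between single mice. The values are read as log2 signal, and differences are congenic minus wild type on that scale, ± SE from the linear model, with n = 2 pools per strain. Signals of different probes depend on the probe and are not set against one another. Genes that define the stomach had values in all pools: Atp4a, the catalytic subunit of the parietal cell proton pump, read between 19.51 and 19.77, and Gkn2, a secreted protein of surface mucous cells, read 21.25 in all pools, the highest value of the table, so its level there is only a bound.

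The respiratory chain passes electrons from NADH (complex I) and succinate (complex II) through ubiquinone to complex III, cytochrome c and complex IV, where oxygen is reduced. Complexes I, III and IV pump protons across the inner mitochondrial membrane, and complex V, the ATP synthase, uses the return flow to make ATP. In the stomach the acid-secreting parietal cells are exceptionally rich in mitochondria, because the proton pump runs on ATP. Most subunits are nuclear genes, while the remainder are encoded in mitochondrial DNA, for which no probe was found under the symbols searched.

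Values of the respiratory chain and ATP synthase probes were mostly slightly lower in the congenic pools, and none of the single differences passed the test. Of the 63 probes, 50 had a negative difference and 13 a positive one, against 50.4% negative among all compared probes. The median difference was -0.12, or 91.9% of the wild-type signal, beside a median of -0.0020 over all compared probes. Single differences ran from -0.59 (Ndufb4) to 0.16 (Ndufb11). In limma with adjustment over all probes, 0 of 63 passed an adjusted p of 0.05, where 0.475% of all compared probes did (0.289% higher and 0.186% lower), and the smallest adjusted p was 0.08261. At an unadjusted p under 0.05 there were 14 lower probes, where 8.66% of all compared probes were lower, and 0 higher, where 7.12% were higher. With outlier-robust moderation of the variances 1 of the 63 passed, Ndufb4 (limma adjusted p = 0.04464). Leaving out congenic pool 2 reduced the 14 to 8, and leaving out each of the other pools gave between 11 and 18.

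Both congenic pools lay below both wild-type pools for 37 of the 63 probes (58.7%), against 26.1% of all compared probes. The opposite order occurred for 3 probes (4.76%), Ndufb10, Atp5c1 and Atp5md, against 23.4% of all compared probes. The other 23 probes overlapped between strains. The subunits of the chain are bright on this array, so the probes with a mean signal of at least 16 were also counted, a level chosen after the data were seen. Among those 1417 probes 30.4% had both congenic pools below both wild-type pools, 23.4% had them above, and the median difference was -0.020. Of the 1417, 54.55% were negative, and 12.6% were lower and 8.68% higher at an unadjusted p under 0.05. Among the 51 respiratory chain and ATP synthase probes at that level, 31 (60.8%) had both congenic pools below and 3 (5.88%) above, with a median of -0.12. Of the 51, 43 were negative (84.3%), and 13 were lower (25.5%) and 0 higher at an unadjusted p under 0.05.

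**Figure D1:**
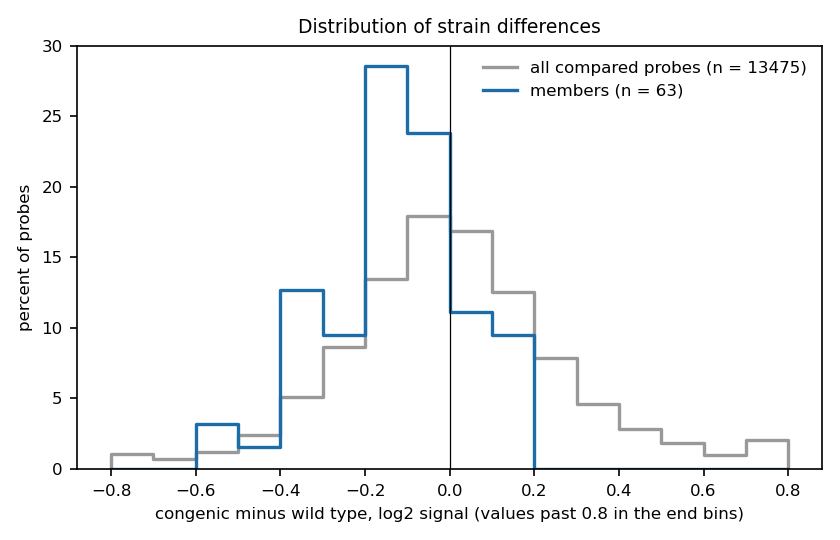
Share of probes (percent, vertical axis) by strain difference (congenic minus wild type, log2 signal, horizontal axis, bins of 0.1) for the 63 respiratory chain and ATP synthase probes (blue) and for all 13475 compared probes (grey). The blue outline lies mostly left of 0, around its median of -0.12, and its highest value is 0.16.

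The shift was also seen pool by pool. With each probe set to its own mean over the 4 pools, the median deviation of the 63 probes was -0.044 and -0.089 in congenic pools 1 and 2, and 0.066 and 0.036 in wild-type pools 1 and 2. Over all compared probes the same medians were 0.0051, -0.014, 0.0064 and 0.0028. The medians of the 63 probes were thus negative in both congenic pools and positive in both wild-type pools. Pools of one strain differed less: the median of pool 1 minus pool 2 was 0.049 in the congenic and 0.013 in the wild-type strain. The median difference of the 63 probes was -0.089 without wild-type pool 1 and -0.14 without congenic pool 1, the ends of its range when each pool was left out. Because the RNA came from whole stomach, fewer mitochondria-rich cells and less of these transcripts per cell cannot be told apart.

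**Figure D2:**
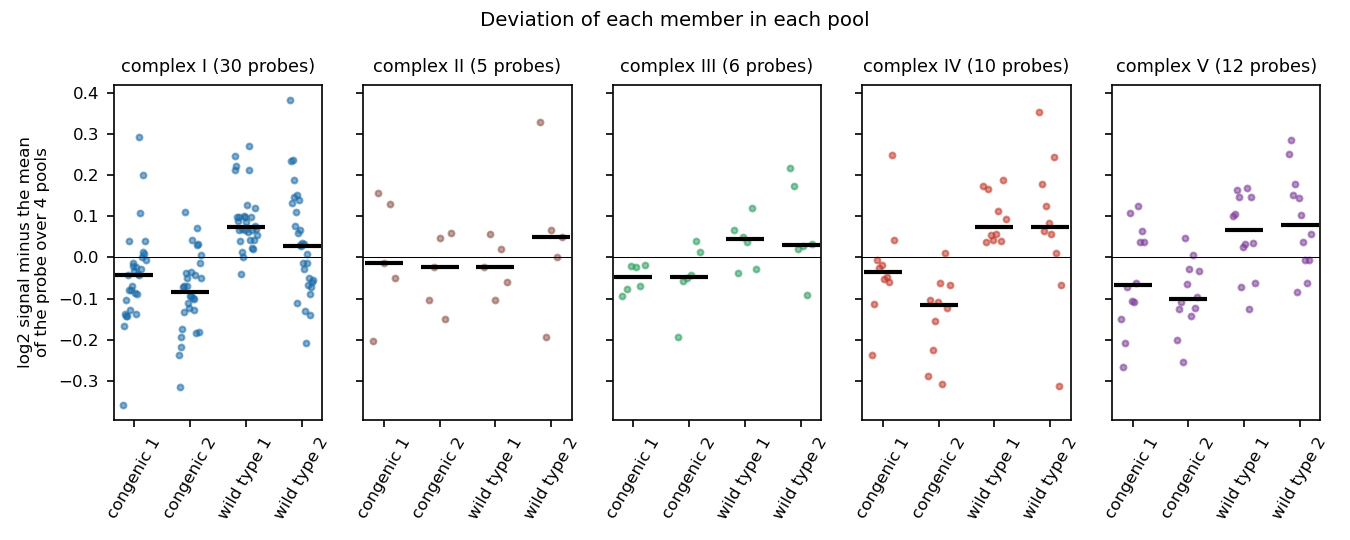
Log2 signal of each probe minus its own mean over the 4 pools (vertical axis) in each pool (horizontal axis), in a panel for each complex; a point is a probe and the black bar the median. In complexes I, III, IV and V the bars lie below 0 in both congenic pools and above 0 in both wild-type pools, and in complex II only wild-type pool 2 lies above 0.

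Complex I, NADH dehydrogenase, had a median difference of -0.13, with 24 of 30 probes negative. Both congenic pools were lowest for 18 (60%, against 26.1% of all compared probes) and highest for 1 (3.33%, against 23.4%). Of its probes, 5 belonged to core subunits, which carry the flavin and the iron-sulfur clusters or connect them to the quinone site, and 21 to accessory subunits, which surround the core. A further 3 belonged to assembly factors and 1 to a pseudogene. The median was -0.13 for both core and accessory subunits. All 5 core subunits had negative differences, and 4 of them, all but Ndufs1, had both congenic pools below both wild-type pools.

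Ndufb4, an accessory subunit of the membrane arm, had the largest difference of the 63 probes. It read 16.74 and 16.86 in the congenic pools and 17.31 and 17.48 in the wild-type pools, with no overlap. The congenic signal was 66.3% of the wild-type signal (-0.59 ± 0.090, limma adjusted p = 0.08261). The reference annotation also lists Ndufb4b and Ndufb4c, genes of similar name whose transcripts may share the probe's signal, so this value is uncertain. Ndufa1, a small X-linked accessory subunit that complex I assembly needs, read 16.16 and 16.01 in the congenic and 16.57 and 16.56 in the wild-type pools. Its congenic signal was 71.7% of the wild-type signal (-0.48 ± 0.080, limma adjusted p = 0.1123). Both differences were well above the spread within a strain, which was at most 0.12 (SD) for either gene.

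Ndufs7, a core subunit that carries the last iron-sulfur cluster before ubiquinone, read 16.62 and 16.57 against 16.86 and 17.003 in wild type (-0.33 ± 0.080, limma adjusted p = 0.1827). Ndufs3, Ndufs8 and Ndufv1, the other core subunits without overlap, had smaller differences, of -0.13 ± 0.072, -0.13 ± 0.074 and -0.12 ± 0.067. Ndufs1, which holds several iron-sulfur clusters of the electron path, read 17.31 and 17.29 against 17.38 and 17.23, and its strains overlapped (-0.0077 ± 0.080). The congenic signal of the core subunits thus ran from 79.3% (Ndufs7) to 99.5% (Ndufs1) of the wild-type signal. The probe named Ndufs5-ps belongs to a transcribed pseudogene and may also read the parent gene Ndufs5. It read 16.67 and 16.59 against 17.03 and 16.94 (-0.35 ± 0.075, limma adjusted p = 0.168).

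Among the other accessory subunits, Ndufb7 (-0.27 ± 0.075), Ndufb9 (-0.22 ± 0.075) and Ndufa10 (-0.18 ± 0.072) had an unadjusted p under 0.05 and no overlap. Ndufb7 is a subunit on the intermembrane side, and all 3 missed the threshold (limma adjusted p between 0.2086 and 0.3107). Ndufs4 and Ndufs6, accessory subunits near the NADH-oxidising tip, differed by -0.13 ± 0.074 and -0.15 ± 0.071. Ndufa13 differed by -0.16 ± 0.084, Ndufa3 by -0.14 ± 0.080, Ndufa6 by -0.12 ± 0.072 and Ndufa5 by -0.11 ± 0.081, each with both congenic pools lowest. For Ndufa5 the margin was narrow, with 16.82 in congenic pool 1 and 16.825 in wild-type pool 2. Without wild-type pool 1 the difference of Ndufa5 was -0.040. Ndufb8 (-0.19 ± 0.17) and Ndufb3 (-0.084 ± 0.11) also had both congenic pools lowest, but their SE was as large as or close to the difference. Ndufa2, Ndufa8, Ndufa9, Ndufa12, Ndufb5, Ndufb11 and Ndufc2 overlapped between strains, with differences from -0.15 to 0.16.

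The assembly factors of complex I, which help build the complex without being part of it, overlapped between strains. Ndufaf1 (0.025 ± 0.17), Ndufaf4 (0.043 ± 0.10) and Ndufaf7 (-0.0074 ± 0.086) differed by less than their SE. Ndufaf5 had a value in congenic pool 1 alone (11.39), and blank cells were not read as absence. Of 7 further assembly genes of complex I from a separate list, such as Ecsit, Foxred1 and Acad9, 6 had negative differences and 0 passed in limma, with 1 at an unadjusted p under 0.05 (Ecsit, -0.38 ± 0.15). The median of that list was -0.081.

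Genes of chromosome 17, the chromosome the congenic strain is named for, supplied 2 of the compared probes. Ndufb10, an accessory subunit of the membrane arm, read 16.37 and 16.44 in the congenic and 16.29 and 16.22 in the wild-type pools. It was one of the 3 probes with both congenic pools highest (0.15 ± 0.073, limma adjusted p = 0.378). Ndufaf7, a methyltransferase that modifies a core subunit during assembly, read 14.88 and 14.79 against 14.91 and 14.78. Neither passed, and without the pair of genes the median difference of the remaining 61 probes was -0.12. Sequence differences between the strains under these probes were not examined.

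Promoters of the respiratory genes were searched for motifs of factors known to act on such genes, chosen after the values were seen. Windows of 250 bases before to 50 after the start, from RefSeq annotation of GRCm38.p6, were found for 57 of the 67 genes. Every motif was sought on both strands. The core of the NRF1 motif, GCGCANGCG, bound by a nuclear respiratory factor, occurred in 17 of them (29.8%). It occurred in 7.03% of 27025 genes in the same table and in 14.7% of the 6246 genes that had a compared probe. The GABP motif CCGGAAGT occurred in 3 of the 57 genes (5.26%), against 4.31% of all and 9.17% of the compared genes. The YY1 motif AAGATGGCG occurred in 5 (8.77%), against 1.64% and 3.57%, and the oestrogen-related receptor motif AAGGTCA in 4 (7.02%), against 5.38% and 3.99%. Against the compared genes the share was thus higher for NRF1, YY1 and the receptor motif and lower for GABP. None of the 4 motifs contains another, and matches were not corrected for base composition, whose median was 57.3% G and C in these genes and 60.3% in the compared genes. Of the 31 genes with a window and both congenic pools lowest, 8 held the NRF1 motif, a smaller share than the 29.8% of the 57 genes. A match of letters is a description and not a binding site.

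The window of Ndufb4, the gene with the largest difference, is shown because it held the NRF1 motif in 3 places and the receptor motif once. The 250 bases before the start are printed from RefSeq, GRCm38.p6, chr16:37654369-37654618, minus strand, with the matches in capitals. The NRF1 matches begin 191, 79 and 22 bases and the receptor match 55 bases before the start.
Ndufb4: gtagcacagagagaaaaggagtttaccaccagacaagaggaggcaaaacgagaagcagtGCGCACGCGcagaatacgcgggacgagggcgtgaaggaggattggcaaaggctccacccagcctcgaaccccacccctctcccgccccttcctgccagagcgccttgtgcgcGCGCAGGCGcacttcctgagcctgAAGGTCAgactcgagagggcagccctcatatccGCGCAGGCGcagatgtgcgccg

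Complex II, succinate dehydrogenase, also a citrate cycle enzyme, had differences on both sides of 0. Its 3 measured subunits overlapped between strains and had a median of 0.038. Sdha, the flavin-bearing catalytic subunit, read 16.56 and 16.38 in the congenic and 16.46 and 16.21 in the wild-type pools (0.14 ± 0.11). Sdhd and Sdhc, the membrane anchors, differed by 0.038 ± 0.086 and -0.017 ± 0.11. Sdhb, the iron-sulfur subunit, was blank on all 4 arrays and gives no value. Of the assembly factors, Sdhaf4 read 14.26 and 14.36 against 14.44 and 14.79, with both congenic pools lowest (-0.30 ± 0.13, limma adjusted p = 0.3293; -0.13 without wild-type pool 2), and Sdhaf2, which helps attach the flavin, did not separate the strains (0.0097 ± 0.088). With 5 probes in all, a difference between complex II and the other complexes was not tested.

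Complex III, the cytochrome bc complex, had 6 of 6 differences negative, with a median of -0.067. Uqcr11, its smallest subunit, read 17.38 and 17.28 in the congenic and 17.54 and 17.69 in the wild-type pools (-0.29 ± 0.084, limma adjusted p = 0.2257). The other small subunits Uqcr10 and Uqcrq also had both congenic pools lowest, but by -0.073 ± 0.071 and -0.061 ± 0.071, no more than about their SE. Of the large core proteins, Uqcrc2 differed by -0.14 ± 0.089 without overlap, while Uqcrc1 (-0.0033 ± 0.069) overlapped. Uqcrfs1, the Rieske iron-sulfur protein, overlapped as well (-0.028 ± 0.10). Without wild-type pool 2 the difference of Uqcrc2 was -0.039 and that of Uqcr11 -0.22.

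**Figure D3:**
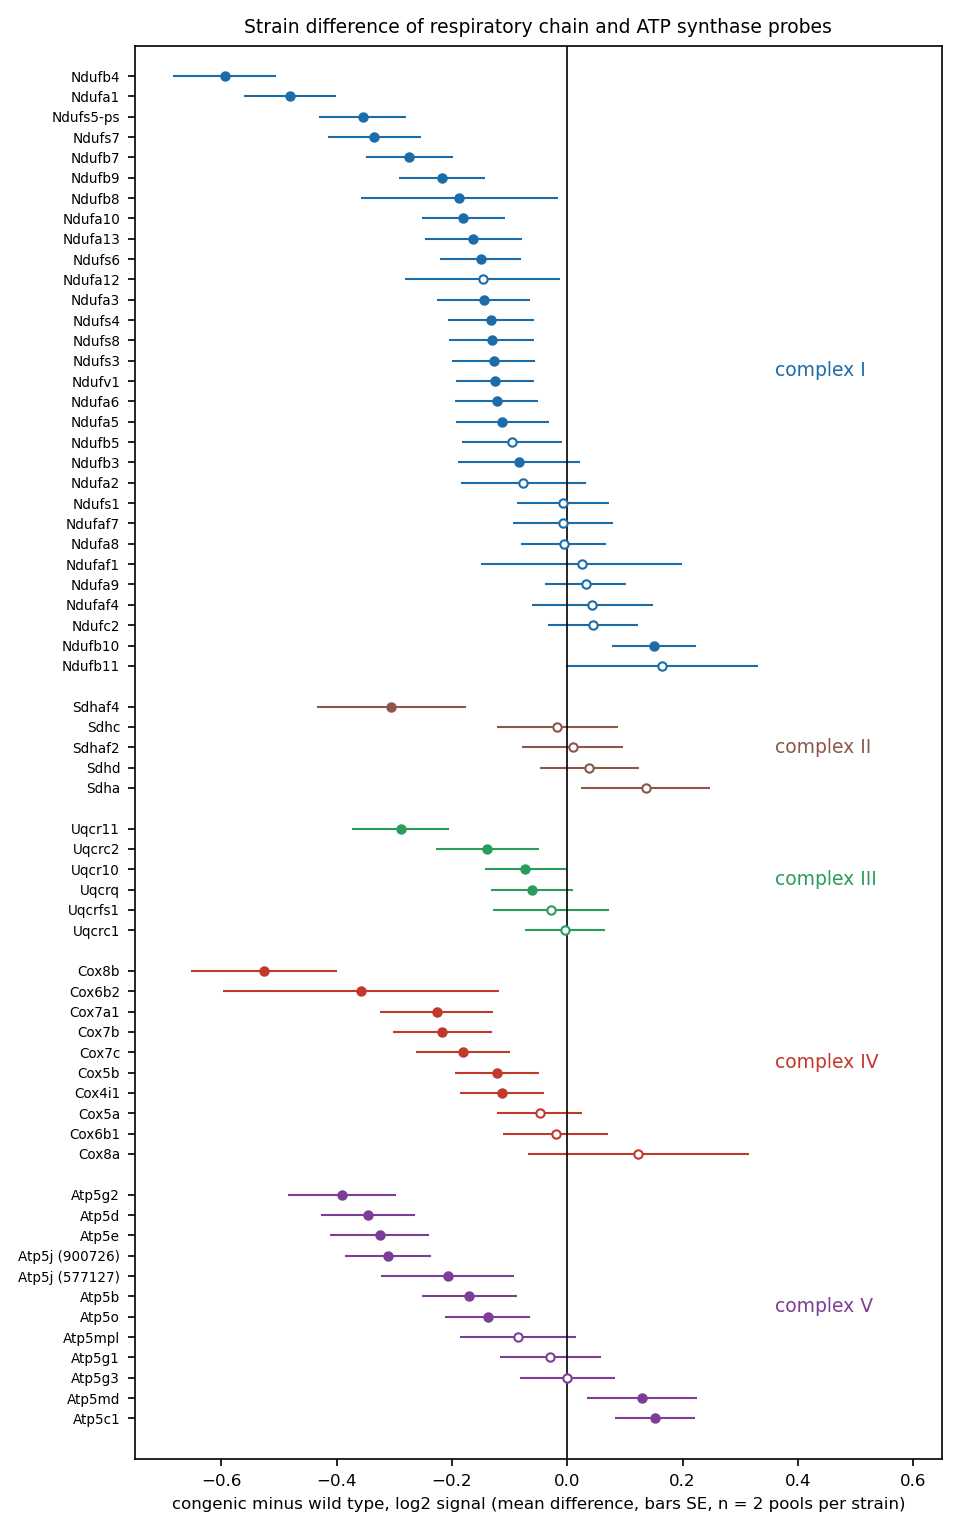
Strain difference of each of the 63 probes (congenic minus wild type, log2 signal, horizontal axis; bars are SE, n = 2 pools per strain), grouped and coloured by complex; filled points are probes whose pools do not overlap between strains. Filled points lie left of 0 for 37 probes and right of 0 for 3, and the outermost is Ndufb4 at -0.59.

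Complex IV, cytochrome c oxidase, had a median difference of -0.15, with 9 of 10 probes negative. Its small nuclear subunits surround a core encoded in mitochondrial DNA, and several exist as paired isoforms, one found in most tissues and one restricted to striated muscle, brown fat, lung or testis. Of the widely expressed subunits, Cox7b read 19.34 and 19.35 in the congenic and 19.49 and 19.63 in the wild-type pools (-0.22 ± 0.086, limma adjusted p = 0.3061). Cox7c (-0.18 ± 0.082), Cox5b (-0.12 ± 0.073) and Cox4i1 (-0.11 ± 0.073) also had both congenic pools lowest, whereas Cox5a (-0.048 ± 0.074) and Cox6b1 (-0.020 ± 0.091) overlapped. The median of these widely expressed subunits, 7 with Cox8a, was -0.11.

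The 3 tissue-restricted isoforms measured on all arrays had a median of -0.36, which is the value of Cox6b2, the probe with the largest SE among them. Each of the 3 had both congenic pools below both wild-type pools, an order found in 26.1% of all compared probes. Cox8b, an isoform of heart, skeletal muscle and brown fat, read 12.09 and 12.04 in the congenic and 12.50 and 12.68 in the wild-type pools. Its congenic signal was 69.4% of the wild-type signal (-0.53 ± 0.13, limma adjusted p = 0.1827). Its widely expressed paralog Cox8a read 18.59 and 18.22 against 18.53 and 18.03, so that both strains spanned the same range (0.12 ± 0.19). Cox7a1, the heart and muscle isoform, read 16.83 and 16.61, both below the lower wild-type value of 16.90, with means of 16.72 ± 0.16 and 16.95 ± 0.073 (SD, n = 2; -0.23 ± 0.098, limma adjusted p = 0.3335). Without congenic pool 2 the difference of Cox7a1 was -0.11. Cox6b2, best known from testis, read 10.32 and 10.06 against 10.48 and 10.61, with a large error (-0.36 ± 0.24). Its paralog Cox6b1 differed by -0.020. Cox4i2 was blank on all arrays and Cox7b2 had a value in wild-type pool 2 alone (14.65). The difference within a pair of isoforms was not tested.

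**Figure D4:**
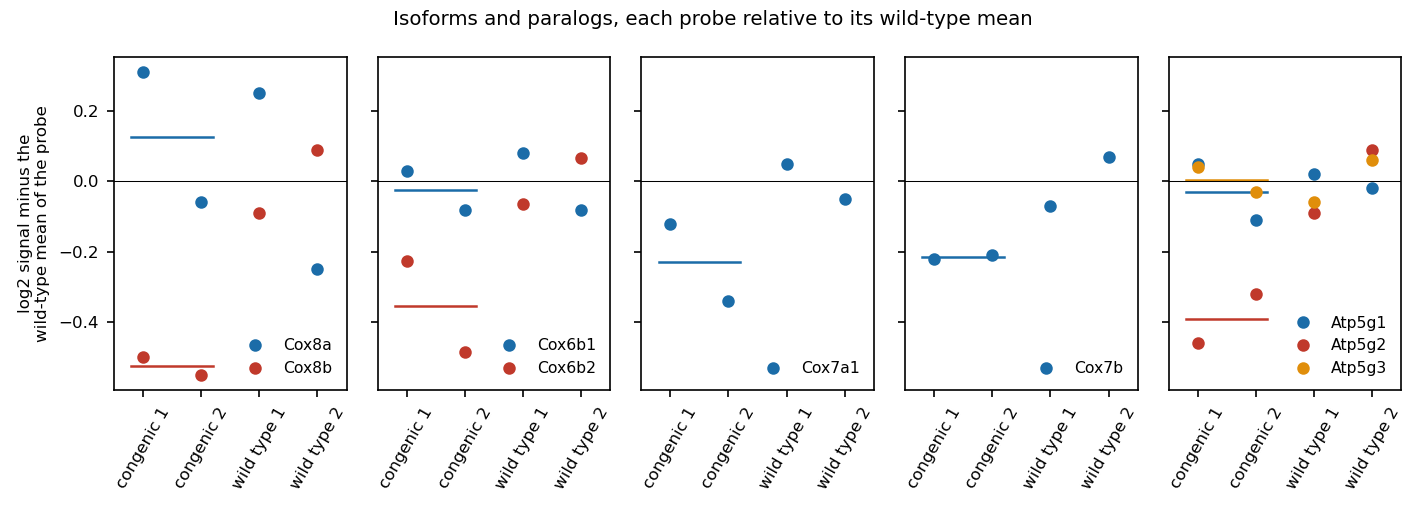
Log2 signal of isoforms and paralogs in each pool, relative to the wild-type mean of the same probe (vertical axis); points are pools and the coloured lines the congenic means. Cox8b, Cox6b2 and Atp5g2 lie below 0 in both congenic pools while their paralogs Cox8a, Cox6b1, Atp5g1 and Atp5g3 lie near the wild-type range.

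Markers of striated muscle, where Cox8b and Cox7a1 are characteristic, were mostly lower in the same pools. Of a list of 31 such genes, 24 had a probe and 13 were compared, with a median of -0.67. In limma 3 fell (Acta1, Myl1 and Tnnt3), 0 rose and 10 did not pass. Among the 13, 11 differences were negative and 2 positive. The positive ones were Myl2 (0.23 ± 0.10), with both congenic pools highest, and Myl3 (0.15 ± 0.21), which overlapped. The summed signal of the 13 was 166411 and 188082 linear units in the congenic pools and 254356 and 250409 in the wild-type pools. The markers Atp2a1, Mybpc2, Myh7, Pvalb, Ryr1, Tcap, Tnni1 and Ttn were blank on all arrays. The part of striated muscle RNA in the values of Cox8b and Cox7a1 was not tested. Of 12 adipose genes 3 were compared (Fabp4, Plin1 and Plin4), with 0 past the threshold in limma and 1 at an unadjusted p under 0.05 (Fabp4, -0.45 ± 0.087). The brown fat genes Ucp1 and Cidea were blank on all arrays.

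Complex V, the ATP synthase, had a median difference of -0.15, with 9 of 12 probes negative. Both congenic pools were lowest for 7 (58.3%, against 26.1% of all compared probes) and highest for 2 (16.7%, against 23.4%). In its catalytic head and central stalk, Atp5d (delta subunit) read 17.52 and 17.47 in the congenic and 17.77 and 17.92 in the wild-type pools (-0.35 ± 0.082, limma adjusted p = 0.179). Atp5e (epsilon subunit), which binds beside it in the central stalk, read 17.30 and 17.12 against 17.52 and 17.55 (-0.32 ± 0.086, limma adjusted p = 0.1967). Atp5c1 (gamma subunit), the rotating shaft of the same stalk, had the opposite order, 17.15 and 17.09 against 16.97 and 16.96 (0.15 ± 0.069, limma adjusted p = 0.3523). Atp5b, the catalytic beta subunit, differed by -0.17 ± 0.083 without overlap. Subunits of one stalk thus lay on both sides of 0.

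In the peripheral stalk, which holds the head still, Atp5j (coupling factor 6) had a pair of probes with the same order. Probe 900726 read 17.77 and 17.87 against 18.14 and 18.13 (-0.31 ± 0.075, limma adjusted p = 0.1827), and probe 577127 read 12.55 and 12.47 against 12.78 and 12.65 (-0.21 ± 0.12, limma adjusted p = 0.4335). Both probes read the same gene and are not independent. Atp5o, which links the stalk to the head, differed by -0.14 ± 0.074 without overlap. Atp5pb, another stalk subunit, was blank in wild-type pool 1 and read 17.88 and 17.92 in the congenic pools and 17.69 in wild-type pool 2. Of the small accessory subunits, Atp5md read 20.62 and 20.50 against 20.37 and 20.49, with both congenic pools highest by a narrow margin (0.13 ± 0.096), and Atp5mpl overlapped (-0.086 ± 0.10).

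The membrane ring of ATP synthase is built from subunit c, and Atp5g1, Atp5g2 and Atp5g3 encode the same mature protein behind different import sequences. Atp5g2 read 16.51 and 16.65 in the congenic and 16.88 and 17.06 in the wild-type pools, or 76.3% of the wild-type signal (-0.39 ± 0.094, limma adjusted p = 0.1827). Atp5g1 read 18.93 and 18.77 against 18.90 and 18.86, and overlapped (-0.029 ± 0.088). Atp5g3 read 18.74 and 18.67 against 18.64 and 18.76, and overlapped as well (0.00037 ± 0.082). Only Atp5g2 of these 3 genes had both congenic pools below both wild-type pools, and the difference between them was not tested. The bases before their starts are shown because the same protein is made from unlike promoters, from RefSeq, GRCm38.p6, on the minus strand, with matches to the 4 motifs in capitals. They lie at chr11:96075632-96075881 (Atp5g1), chr15:102671048-102671297 (Atp5g2) and chr2:73911327-73911576 (Atp5g3). Atp5g2 held the NRF1 motif, beginning 42 bases before the start and matching on both strands, and Atp5g3 the receptor motif on the opposite strand, beginning 52 bases before the start. Atp5g3 also held the NRF1 motif in the bases after the start, and no motif letters were found in the window of Atp5g1.
Atp5g1: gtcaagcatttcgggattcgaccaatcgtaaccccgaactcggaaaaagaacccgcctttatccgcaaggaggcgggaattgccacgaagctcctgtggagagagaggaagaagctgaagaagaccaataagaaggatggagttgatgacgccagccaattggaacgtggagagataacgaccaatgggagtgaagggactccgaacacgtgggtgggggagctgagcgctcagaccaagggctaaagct
Atp5g2: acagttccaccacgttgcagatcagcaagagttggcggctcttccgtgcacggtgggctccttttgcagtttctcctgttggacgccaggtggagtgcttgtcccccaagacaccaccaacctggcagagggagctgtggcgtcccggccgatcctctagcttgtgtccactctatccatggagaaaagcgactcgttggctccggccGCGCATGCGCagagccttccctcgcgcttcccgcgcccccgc
Atp5g3: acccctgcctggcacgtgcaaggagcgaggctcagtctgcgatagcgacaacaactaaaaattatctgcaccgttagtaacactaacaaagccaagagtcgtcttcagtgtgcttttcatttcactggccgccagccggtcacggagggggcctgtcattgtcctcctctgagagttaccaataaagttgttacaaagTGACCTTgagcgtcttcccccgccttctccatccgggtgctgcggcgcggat

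Other mitochondrial gene groups were set beside the subunits. The mitochondrial ribosome, which translates the subunits encoded in mitochondrial DNA, had a median of -0.060 over 59 probes, with 40 negative. Both congenic pools were lowest for 23 of them (39.0%, against 26.1% of all compared probes) and highest for 12 (20.3%, against 23.4%). In limma 0 passed. At an unadjusted p under 0.05, 12 were lower (20.3%, against 8.66% of all compared probes) and 5 higher (8.5%, against 7.12%). Among the 63 respiratory probes 22.2% were lower and 0 higher at that level, so the share of lower probes was similar. Assembly genes of complexes III and IV had a median of -0.053 over 16 probes, with 0 past the threshold in limma and 2 lower at an unadjusted p under 0.05, Cox19 (-0.33 ± 0.082) and Coa6 (-0.24 ± 0.095). Pyruvate dehydrogenase and citrate cycle genes had a median of -0.036 over 15 probes, again with 0 past the threshold in limma and 2 lower at an unadjusted p under 0.05. These were Pcx, pyruvate carboxylase (-0.45 ± 0.096), and Idh2, a mitochondrial isocitrate dehydrogenase (-0.29 ± 0.086). The medians of these groups lay between those of the respiratory probes and of all compared probes.

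Regulators of mitochondrial biogenesis had a median of -0.014 over 12 probes, with 6 negative and 6 positive, 0 past the threshold in limma and 1 at an unadjusted p under 0.05 (Polg2, -0.52 ± 0.19). Energy carriers and channels of the mitochondrial membranes had a median of 0.10 over 9 probes, with 4 negative, 0 past the threshold in limma and 2 lower at an unadjusted p under 0.05. These were Vdac1, the main outer membrane channel (-0.28 ± 0.074), and Slc25a3, the phosphate carrier (-0.20 ± 0.073). Electron carriers and ubiquinone synthesis genes had a median of 0.034 over 8 probes, with 0 past the threshold in limma or at an unadjusted p under 0.05. Cycs, cytochrome c, which shuttles electrons between complexes III and IV, had a pair of probes. Probe 900401 read 18.16 and 18.18 against 17.60 and 18.10, lowest in wild-type pool 1 (0.32 ± 0.16), and probe 894005 read 17.64 and 17.69 against 17.48 and 17.62 (0.11 ± 0.079). Of 4 genes for the assembly and inhibition of ATP synthase, with a median of 0.048, 0 passed in limma or at an unadjusted p under 0.05, and Atpif1, the inhibitor protein, differed by 0.14 ± 0.070.

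The cell makeup of the samples was followed with marker lists. Of 15 genes listed as parietal cell markers 13 were compared with 14 probes, 7 of them negative and 7 positive. Cblif (0.64 ± 0.33) and Chia1 (0.090 ± 0.085) were among the positive ones. In limma 0 passed, and 3 were lower at an unadjusted p under 0.05, Slc4a2 (-0.49 ± 0.079), Clic6 (-0.26 ± 0.082) and Atp4a (-0.21 ± 0.079). Atp4b overlapped between strains (0.041 ± 0.075). The median of the list was -0.025. Both congenic pools were lowest for 6 of the 14 probes (42.9%, against 26.1% of all compared probes). They were highest for 3 (21.4%, against 23.4%), which were Cblif, Chia1 and Slc12a2. The summed signal of the list was 5357315 and 5419847 linear units in the congenic and 4768722 and 5430388 in the wild-type pools. That sum weighs bright probes most, among them Chia1 and Cblif, so it does not follow parietal cells alone. Cblif read 20.20 and 20.24 in the congenic pools, and 19.02 and 20.14 in wild-type pools 1 and 2. Slc26a7 was blank on all arrays. The list is not particular to parietal cells throughout, as Cblif is also on the chief cell list. The cells that express Chia1 were not examined. Of 8 chief cell genes 4 were compared, with a median of 0.45. Both congenic pools were highest in all 4, an order found in 23.4% of all compared probes. In limma 0 of the 4 passed, and 2 were higher at an unadjusted p under 0.05, Rnase1 (0.61 ± 0.11) and Bhlha15 (0.29 ± 0.094). The summed signal of the 4 was 1368434 and 1422810 units in the congenic and 647246 and 1283997 in the wild-type pools. Most of that sum is Cblif, the brightest of the 4, which was lowest in wild-type pool 1 (19.02). Exocrine pancreas genes were higher, with a median of 2.67 and 9 of 10 compared probes past the threshold in limma. Their summed signal was 1484722 and 1273254 units in the congenic and 960704 and 1107757 in the wild-type pools. Most of that sum is Clps, the brightest of the 10 and the only probe that overlapped (19.82 and 19.50 against 19.62 and 19.87). All 9 liver probes had positive differences, with a median of 0.88. Both congenic pools were highest for 7 (77.8%, against 23.4% of all compared probes). In limma 2 passed (Alb and Hpx), and 6 were higher at an unadjusted p under 0.05. The summed liver signal was 453507 and 422666 against 398629 and 401761, most of it from the bright probes of Apoa1 and Ttr, which overlapped. Smooth muscle and squamous forestomach genes had medians of -0.042 and 0.0011 with 0 past the threshold in limma, and 3 lower and 1 higher, and 1 lower and 1 higher, at an unadjusted p under 0.05. The part of these tissue shifts in the values of the respiratory chain probes was not tested.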

How the data were processed

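Per the labels' protocols, RNA was isolated with TRIzol, and cRNA carrying digoxigenin was made from 1 microgram with a chemiluminescent kit of Applied Biosystems. Values in the deposited table are log2 signals from 6.73 to 21.2, with the base inferred from that range. How the authors normalized them, and which rule left cells blank, is not given in the sources used here. An array had between 16320 and 16954 values, and array medians over the compared probes lay between 12.819 and 12.824, so no further scaling was applied. Signal over background is unknown and the number of arrays limits the precision.

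Probes were named through the platform's annotation table, and chromosomes came from the RefSeq table of GRCm38.p6. The strains were compared per probe by limma's moderated linear model (limma 3.58.1, R 4.3.3), which let the variance depend on signal level and had 2 residual and 3.97 prior degrees of freedom. The test was two-sided. P-values were adjusted by Benjamini-Hochberg over the 13475 probes with a value on every array, and the threshold was 0.05. The fit was tested on simulated data. The members and lists were chosen with earlier results of these data known. Lists are described by counts and medians, without a test. Named genes are those with an unadjusted p under 0.01, those on chromosome 17, isoforms with their paralogs, repeated probes, and per complex up to 2 of the largest differences in each direction without overlap; other members were named by their role after their values were seen. Alternatives were other scalings and variance models, a replicate block, a filter on dim probes, 1 blank allowed and leaving out each pool. Figures were drawn with matplotlib 3.10.9.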

Additional observations from a re-analysis of the deposited data

How the results depend on the processing

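With 2 pools per strain, a miss of the threshold does not show that values did not differ, and all differences rest on an inferred log2 scale. The count of 63 probes past the threshold in limma was 0, and 1 with robust moderation of the variances (Ndufb4). It was 0 in all other settings run: median centring, quantile normalization, dim probes left out, no variance trend, the replicate block, 1 blank allowed, each pool left out, and probes with a mean of at least 16. Lower probes at an unadjusted p under 0.05 numbered 14, and between 8 and 18 when each pool was left out in turn. No higher probe reached that level in any of these settings. The titles give the strains the same pool numbers and say nothing of pairing: pool 1 minus pool 2 correlated at -0.064 between strains over the compared probes and at 0.43 over the 63, which are not independent, and 2 pairs cannot show that the numbers pair the pools. With the replicate block 14 lower probes reached an unadjusted p under 0.05, and 35 of all compared probes passed instead of 64. The median difference lay between -0.145 and -0.0887 when each pool was left out. By complex the same ranges were -0.145 to -0.0838 (complex I), -0.0475 to 0.0451 (complex II), -0.0793 to -0.0574 (complex III), -0.189 to -0.109 (complex IV), -0.172 to -0.15 (complex V). Atp5g3 changed sign with median centring (-0.0013). Of the 63 probes, none of which passed in the reported fit, 43 kept their sign when each pool was left out, as those without overlap must. The other 20 had values on both sides of 0: Atp5g1 -0.112 to 0.0537, Atp5g3 -0.0595 to 0.0602, Atp5mpl -0.189 to 0.0172, Cox6b1 -0.1 to 0.0596, Cox8a -0.126 to 0.373, Ndufa12 -0.346 to 0.0525, Ndufa2 -0.221 to 0.0685, Ndufa8 -0.0603 to 0.0479, Ndufa9 -0.00594 to 0.0696, Ndufaf1 -0.164 to 0.214, Ndufaf4 -0.0226 to 0.109, Ndufaf7 -0.0751 to 0.0602, Ndufb11 -0.0458 to 0.376, Ndufc2 -0.00591 to 0.0952, Ndufs1 -0.0821 to 0.0667, Sdhaf2 -0.0494 to 0.0689, Sdhc -0.157 to 0.123, Sdhd -0.0475 to 0.124, Uqcrc1 -0.0329 to 0.0263 and Uqcrfs1 -0.136 to 0.0793.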
